A study of Homo sapiens with 4 samples.

Results

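The genes of the Mediator complex were examined in the lists of ChIP-seq peaks of WDR5 and of trimethylated lysine 4 of histone H3 (H3K4me3) from the leukemia cell lines RS4;11 and THP-1. The members were the 33 genes that encode Mediator subunits, taken by gene symbol from the lists of all 4 samples, out of 19098 protein-coding genes. All 33 were found in at least 1 list, and MED24 is the only member that the study itself picked out as a WDR5 target. The lists held 77 distinct H3K4me3 peaks of these genes, of 24212, for RS4;11, and 90, of 26523, for THP-1. The WDR5 peaks numbered 3 of 703 and 2 of 225.

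RS4;11 is a line of B-cell precursor acute lymphoblastic leukemia and THP-1 a monocytic line of acute myeloid leukemia, and both carry a rearranged MLL gene. Each of the 4 samples was 1 immunoprecipitation, with ab56919 against WDR5 after sonication or with ab8580 against H3K4me3 after digestion by micrococcal nuclease, from untreated cells grown in RPMI1640 with 10% FBS. There were no replicates, so no difference between the lines could be set against a spread, no test was made between them, and each line stands for 1 culture. The lists give the position of each peak in hg19 and its place relative to nearby transcripts, without reads, heights or p-values, so the depth is unknown and a peak that is not listed cannot be told apart from one that was too weak to be called.

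Mediator is a large complex that carries signals from transcription factors bound at enhancers and promoters to RNA polymerase II. Its head and middle contact the polymerase, its tail binds activators, MED14 runs through the complex as a backbone, and a kinase module of CDK8 or CDK19, cyclin C, MED12 and MED13 joins and leaves the core. WDR5 is a shared subunit of the MLL and SET1 methyltransferases, which place the methyl groups of H3K4me3 at the starts of active genes.

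Few subunits had a WDR5 peak, and the sequence under 4 of the 5 peaks is given here to show what kind of DNA each covered, as the 300 bases around the center of each peak, in GRCh37 and on the strand of the gene. Capitals mark CCAAT or its reverse complement ATTGG, the site of the factor NF-Y. The motif was chosen after the sequences had been seen. The peak near MED30 is described by its position only.
MED24 WDR5 peak, RS4;11 cells, chr17:38210443-38210742: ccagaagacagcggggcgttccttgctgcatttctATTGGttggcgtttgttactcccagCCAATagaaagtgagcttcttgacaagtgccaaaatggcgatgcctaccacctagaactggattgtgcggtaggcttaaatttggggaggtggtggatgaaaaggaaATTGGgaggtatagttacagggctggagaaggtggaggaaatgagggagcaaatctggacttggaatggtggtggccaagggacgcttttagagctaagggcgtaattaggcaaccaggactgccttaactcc
MED27 WDR5 peak, RS4;11 cells, chr9:134887464-134887763: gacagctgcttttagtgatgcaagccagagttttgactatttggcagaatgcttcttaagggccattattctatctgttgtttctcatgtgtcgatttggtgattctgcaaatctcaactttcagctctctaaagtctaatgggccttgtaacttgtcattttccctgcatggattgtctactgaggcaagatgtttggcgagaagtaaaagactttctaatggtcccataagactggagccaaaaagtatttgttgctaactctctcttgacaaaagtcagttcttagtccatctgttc
MED12L WDR5 peak, THP-1 cells, chr3:150794004-150794303: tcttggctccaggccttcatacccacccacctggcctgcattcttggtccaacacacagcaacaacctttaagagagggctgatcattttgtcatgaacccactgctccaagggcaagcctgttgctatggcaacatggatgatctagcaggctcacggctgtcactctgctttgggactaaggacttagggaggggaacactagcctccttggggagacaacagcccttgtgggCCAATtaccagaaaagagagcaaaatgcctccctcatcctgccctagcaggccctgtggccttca
CDK19 WDR5 peak, THP-1 cells, chr6:111090929-111091228: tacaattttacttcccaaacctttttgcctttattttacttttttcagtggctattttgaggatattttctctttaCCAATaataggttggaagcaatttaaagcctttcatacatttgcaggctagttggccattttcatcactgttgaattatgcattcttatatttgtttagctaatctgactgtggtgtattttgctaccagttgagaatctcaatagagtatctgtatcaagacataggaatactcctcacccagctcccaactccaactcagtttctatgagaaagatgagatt

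The window of MED24 held 3 such motifs, those of MED12L and CDK19 held 1 each, and that of MED27 none. The motif was not counted over all WDR5 peaks, so these numbers set no window apart. It was present in 36.6% of the 15318 RefSeq promoters of all genes, on either strand. The first 131 bases of the MED24 window were identical to bases 170 to 300 of the MED24 promoter of RefSeq, which begins 250 bases before the annotated start, and they held 2 of the 3 motifs. The whole MED24 peak had 49.3% G and C, above 564 of the 699 WDR5 peaks that lie on assembled chromosomes in RS4;11 cells. MED27 had 40.8% (above 367 of 699), the peak near MED30 38.5% (above 273 of 699), MED12L 52.7% (above 191 of 219 in THP-1 cells) and CDK19 34.9% (above 66 of 219). The 5 peaks lay on both sides of the medians of all WDR5 peaks, which were 40.3% in RS4;11 and 38.8% in THP-1 cells. The observed to expected ratio of CpG was 0.37 for MED24 and between 0.00 and 0.11 for the others, against medians of 0.18 and 0.20 over all WDR5 peaks.

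WDR5 peaks were listed for 3 of the 33 genes in RS4;11 cells, where 4.22% of all protein-coding genes had one, and for 2 in THP-1 cells, where 1.39% did. No member had a WDR5 peak in both lines. These small counts gave no ground for setting Mediator apart from other genes, and only the places of the peaks are described. MED24 encodes a tail subunit through which nuclear receptors act on Mediator. Its gene lies at chr17:38175350-38217468 on the minus strand, beside THRA, the gene of a thyroid hormone receptor.

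The WDR5 peak of MED24 in RS4;11 cells was 337 bp wide, at chr17:38210425-38210761. Its center lay 68 bp downstream of the start of the canonical transcript, in intron 1 of a transcript of 26 exons, and the start itself lay inside the peak. The H3K4me3 peak across the same start ran from 38209627 to 38211595 in RS4;11 cells (1969 bp) and from 38209553 to 38211531 in THP-1 cells (1979 bp). MED24 was thus the only member whose WDR5 peak lay in H3K4me3 at its own start. Over all protein-coding genes this held for 32 genes or 0.168% in RS4;11 cells, and for 8 genes or 0.0419% in THP-1 cells, where no member was among them. The widths of the H3K4me3 start peak of MED24 differed by 10 bp between the lines. Summed over all H3K4me3 peaks listed for the gene, the width was 7258 bp in RS4;11 and 4734 bp in THP-1 cells. A WDR5 peak was listed in RS4;11 cells only. By ChIP with quantitative PCR, the paper reported WDR5 at the MED24 promoter in other leukemia lines and in primary leukemia cells. Among listed peaks, all within 20 kb of a transcript, THP-1 cells had 225 for WDR5 against 703 in RS4;11 cells. The part of that gap in the missing MED24 peak was not tested. The other H3K4me3 peaks listed for MED24 lay towards THRA, and the one of 2605 bp in RS4;11 cells crossed the start of that gene.

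The other 4 WDR5 peaks lay far from H3K4me3. In RS4;11 cells, the peak of MED27, a head subunit, was at chr9:134887400-134887828 in intron 3, 67640 bp from the start, and the nearest H3K4me3 peak of that line was 29897 bp away. That of MED30, also of the head, lay at chr8:118567365-118568037, 15200 bp past the 3′ end of the gene and 32323 bp from H3K4me3. In THP-1 cells, the peak of MED12L was at chr3:150793961-150794347, upstream of the start by 9297 bp and 8432 bp from H3K4me3. That of CDK19, the paralog of the kinase CDK8, was at chr6:111090789-111091369 in intron 1 and 18119 bp from H3K4me3. The map of the listed peaks shows these distances.

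**Figure D1:**
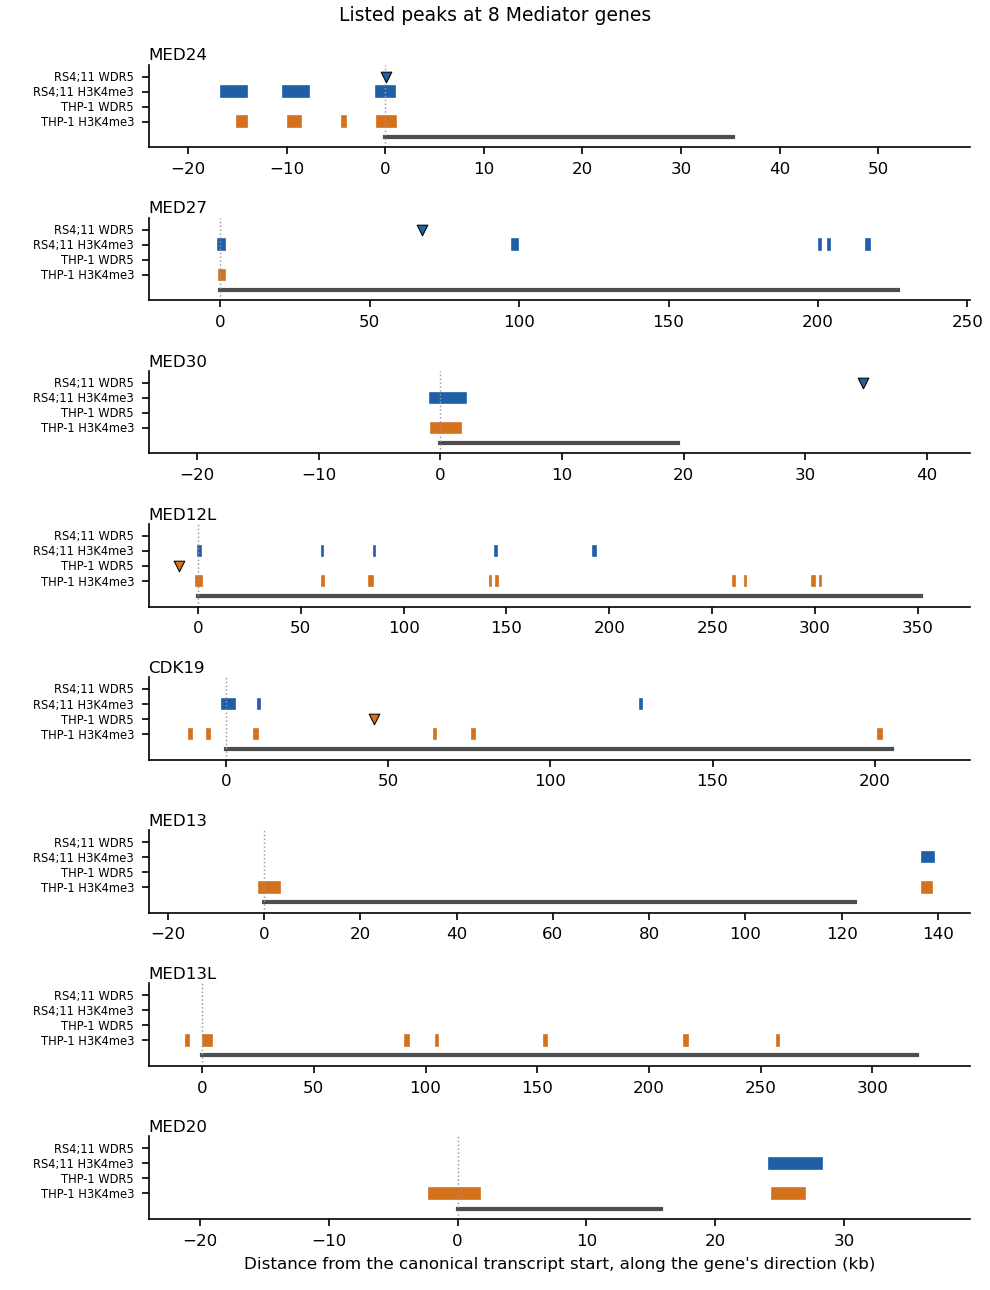
Positions of the listed peaks at the 5 Mediator genes with a WDR5 peak and at MED13, MED13L and MED20, as distance in kb from the canonical start along the gene, with H3K4me3 as bars, centers of WDR5 peaks as triangles, RS4;11 in blue, THP-1 in orange and the gene in grey. At MED24 the WDR5 peak of RS4;11 cells lies within the H3K4me3 peak at the start, whereas the other 4 WDR5 peaks lie 8432 bp or more from H3K4me3 of the same line.

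H3K4me3 was listed for nearly all members. At least 1 peak within 20 kb was listed for 32 of the 33 genes in RS4;11 cells (76.6% of all protein-coding genes) and for all 33 in THP-1 cells (81.8%). By coordinates, with the gene body and 5000 bp to each side, the counts were 30 and 33. The only peaks of MED13 and MED20 in RS4;11 cells crossed the starts of the neighbours INTS2 and USP49. A start peak, that is a peak with both the upstream and the exon flag of the same transcript, was found for 30 members in RS4;11 cells, 90.9% of them against 49.2% of all genes, and for 32 in THP-1 cells, 97% against 52.9%. When a fixed promoter window was used, reaching 2000 bp before and 500 bp past the annotated 5′ end, the counts were 28 (49.6% of all genes) and 30 (55.9%). The annotated 5′ end lies 16154, 11697 and 6807 bp from the canonical start in MED7, MED15 and MED24, and at MED24 the window met the peak of the THRA side in place of that at its own start. Start peaks are therefore used below.

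A start peak was present in both lines for 29 of the 33 members, against 7951 of 19098 genes (41.6%). In exactly 1 line it was present for 4 members, against 3603 genes (18.9%). These members were MED13, MED13L and MED20 in THP-1 cells and CDK19 in RS4;11 cells, and there was no member without a start peak in either line. The 19098 genes include those with a start peak in neither line, so 18.9% is not the share among genes that had one. Subunits of complexes that work with Mediator, listed with results of these data known, gave 9 of 12 genes with a start peak in each line for RNA polymerase II (75%), and 27 (87.1%) and 23 (74.2%) of 31 for the general transcription factors. POLR2A, POLR2B and TBP, genes of the polymerase's large subunits and of the TATA-binding protein that dividing cells use, had no start peak in either line, so a gene without a listed start peak cannot be taken as one without the mark.

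The start peaks of the members were, by their median width, narrower than those of all genes in RS4;11 cells and wider in THP-1 cells. Their median over the members was 2441.5 bp in RS4;11 cells (range 1384 to 4307 bp), against 2616.5 bp over all genes, and 2533 bp in THP-1 cells (range 1545 to 4290 bp), against 2443 bp. The middle 50% of the members spanned 2160 to 3128 bp and 2180 to 3437 bp, and those of all genes 2080 to 3223 bp and 1872 to 3061 bp. In RS4;11 cells the members' range lay inside that of all genes, and in THP-1 cells both of its ends were higher. These differences were not tested.

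**Figure D2:**
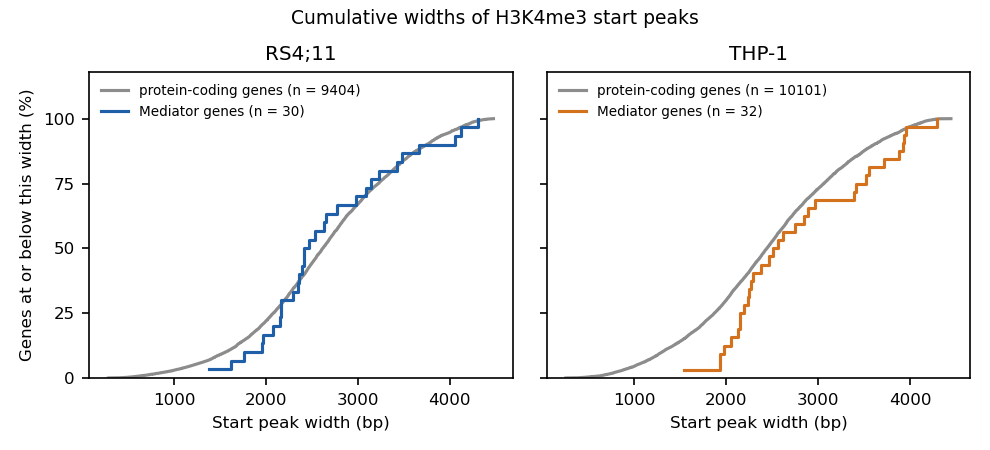
Cumulative share of genes by the width of the H3K4me3 peak across the start (bp), for Mediator genes and for all protein-coding genes, with 1 panel per line. The curve of the members crosses that of all genes in RS4;11 cells and lies mostly at larger widths in THP-1 cells, with medians of 2441.5 against 2616.5 bp in RS4;11 cells and of 2533 against 2443 bp in THP-1 cells.

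Of the 29 members with a start peak in both lines, 15 had the wider one in THP-1 cells, a share to be read against 48.5% of 7951 genes, and 14 in RS4;11 cells. The median difference, THP-1 minus RS4;11, was 10 bp for the members and -14 bp for all genes. The widths were within 300 bp of each other for 17 members (58.6%) and for 4003 of all genes (50.3%). The agreement between the lines was near that of other genes, whose median absolute difference was 298 bp against 230 bp for the members. MED8, MED31, MED12L, MED1 and MED14 differed most.

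**Figure D3:**
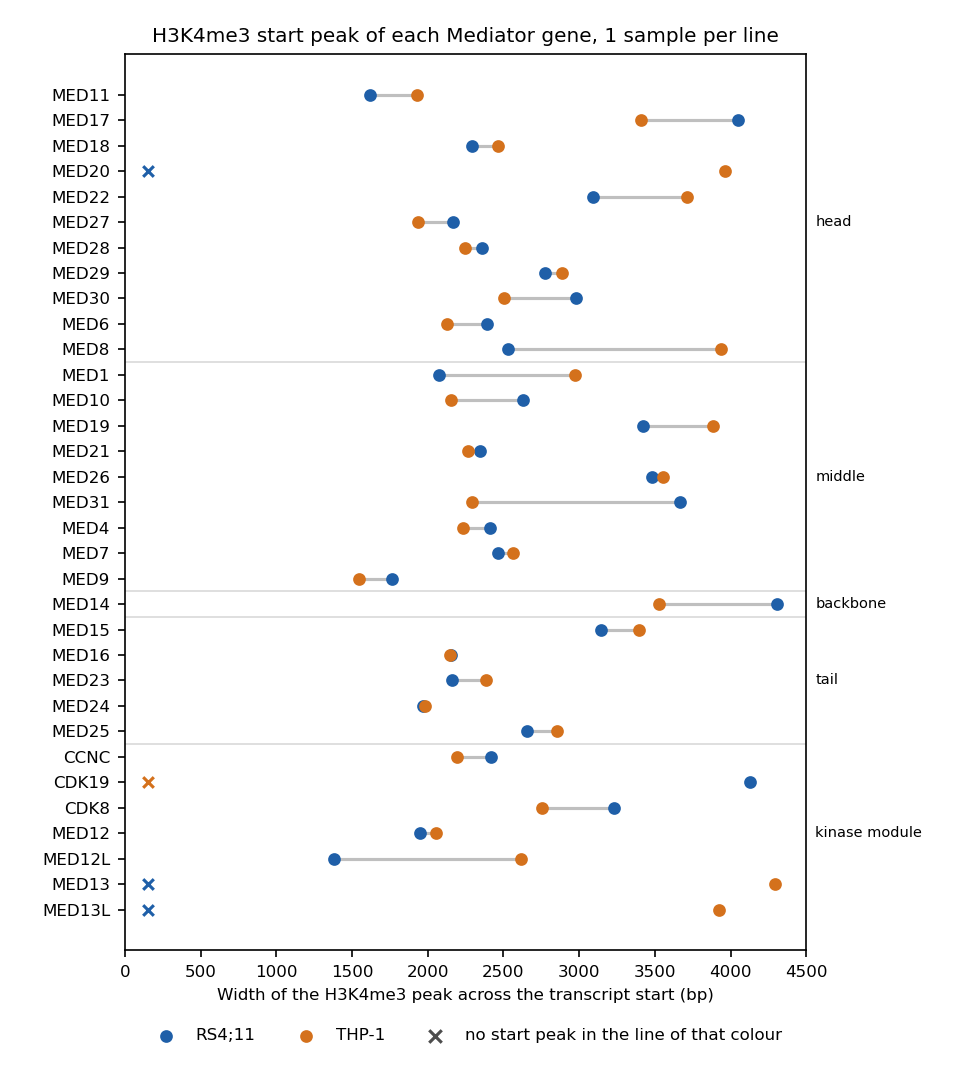
Width of the H3K4me3 peak across the start of each Mediator gene (bp) in RS4;11 and THP-1 cells, 1 sample each, with genes grouped by module and a cross at the left edge where no start peak was listed. Widths of the same gene lie close together in most cases, with MED8 (2531 and 3939 bp) and MED31 (3667 and 2293 bp) the farthest apart, with RS4;11 in blue and THP-1 in orange, and crosses stand at MED13, MED13L, MED20 and CDK19 in 1 line each.

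In the head, which docks on the polymerase, start peaks were listed for 10 of 11 genes in RS4;11 cells and for all 11 in THP-1 cells, with medians of 2462 and 2506 bp. MED17, a core subunit of the head, had one of the widest peaks in RS4;11 cells, 4051 bp, and 3408 bp in THP-1 cells. MED11 had one of the narrowest in each line, 1618 and 1932 bp, and that of MED27 was 2165 and 1935 bp. The largest difference in width among all subunits was found in this module, at MED8, where the peak measured 2531 bp in RS4;11 and 3939 bp in THP-1 cells. This peak also crossed the start of the neighbouring gene C1orf84 in both lines, so that its width is that of a start region of 2 genes. MED20, where RS4;11 cells had no start peak, is described with the other genes of that kind. MED30 had 2977 and 2506 bp.

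In the middle, all 9 genes had start peaks in both lines, with medians of 2466 and 2293 bp. MED1, the subunit that binds nuclear receptors through its LXXLL motifs, had 2073 bp in RS4;11 and 2969 bp in THP-1 cells. At MED31 the order was the opposite, with 3667 and 2293 bp, and at MED9 the peak was narrow in both lines, 1761 and 1545 bp. MED26, which recruits elongation factors, and MED19 were among the wide ones, at 3481 and 3553 bp and at 3420 and 3886 bp. MED7 had 2466 and 2560 bp, although no peak met the window at its annotated 5′ end in either line. The widths of the middle therefore covered much of the range of all members, and no direction was common to its genes.

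MED14, the backbone, had the widest start peak of all members in RS4;11 cells, 4307 bp at chrX:40592431-40596737, and 3527 bp in THP-1 cells. All 5 tail genes had start peaks in both lines, with medians of 2159 and 2383 bp. MED15, a target of activation domains, had 3142 and 3392 bp, MED25 2655 and 2852 bp, and MED16 2156 and 2147 bp. None of the tail genes differed by more than 250 bp between the lines, and MED24 was the narrowest of them in each. The remaining 10 members, MED4, MED6, MED10, MED18, MED21, MED22, MED23, MED28, MED29 and CCNC, had widths of 2159 to 3089 bp in RS4;11 and 2124 to 3714 bp in THP-1 cells, with differences of at most 625 bp and 1 to 3 peaks per gene.

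In the kinase module, start peaks were listed for 5 of the 7 genes in RS4;11 cells and for 6 in THP-1 cells, and 3 of the 4 members with a start peak in only 1 line belong to it. Its paralogs were compared in pairs. MED12 had start peaks of 1951 and 2052 bp, and MED12L of 1384 and 2616 bp. CDK8, the kinase after which the module is named, had 3233 and 2753 bp, and CDK19 had 4126 bp in RS4;11 cells and none in THP-1 cells. MED13 and MED13L, which link the module to the core, had start peaks of 4290 and 3925 bp in THP-1 cells and none in RS4;11 cells.

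At the 4 genes with a start peak in only 1 line, that peak was wide: 3925 bp for MED13L, 3960 bp for MED20, 4126 bp for CDK19 and 4290 bp for MED13. The widest peaks in the lists measured 4478 and 4446 bp. Over all genes, the share of start peaks missing from the other line's list was 15.5% for RS4;11 and 21.3% for THP-1 peaks, and it varied with width. Under 1000 bp, 36.7% of genes with a start peak in RS4;11 cells had none in THP-1 cells, and 64.4% in the other direction. Of genes with a start peak of 2000 to 2500 bp in RS4;11 cells, 8.4% had none in THP-1 cells, and of those of 4000 bp or more, 39.6% (197 of 498) had none. In the other direction, which applies to MED13, MED13L and MED20, the shares were 46.9% at 1000 to 1500 bp, 26.8% at 1500 to 2000 bp and 11.2% at 3000 to 3500 bp. The class of 3500 to 4000 bp, that of MED13L and MED20, had 17.2%, below the share over all widths, and the class of 4000 bp or more, that of MED13, had 25.7% (81 of 315). The part of peak width in the missing entries of these 4 genes was not tested.

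**Figure D4:**
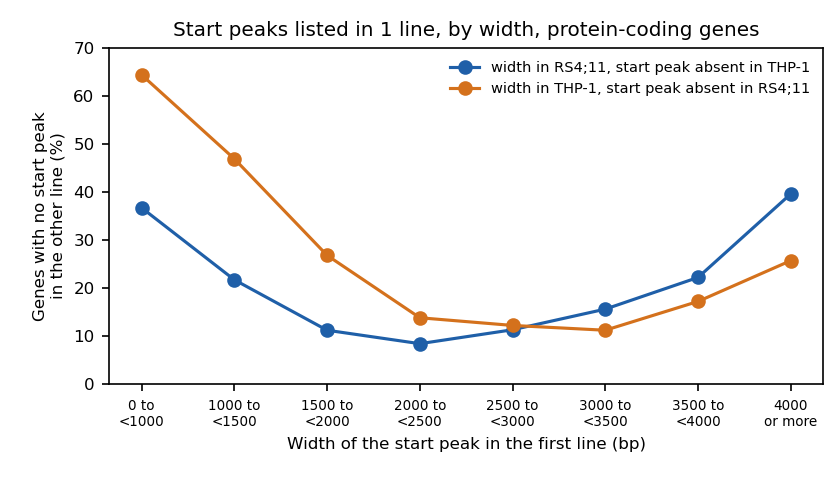
Percent of genes with a start peak in 1 line that had none in the other line, by class of peak width (bp), for each direction of the comparison over all protein-coding genes. The share is 36.7% and 64.4% under 1000 bp, lowest in the classes between, 8.4% for RS4;11 peaks of 2000 to 2500 bp and 11.2% for THP-1 peaks of 3000 to 3500 bp, and is 39.6% and 25.7% at 4000 bp or more, and the 4 members with a start peak in 1 line have widths of 3925 to 4290 bp.

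The surroundings of these genes differed. MED13L was the only member with no H3K4me3 peak listed in RS4;11 cells. The nearest peak of that line was 255049 bp from its start, and on the other side of the gene no peak was listed for 1990670 bp. On the same side no peak was listed in THP-1 cells either, for 1289360 bp. The lists hold only peaks within 20 kb of a transcript, so these stretches cannot be taken as free of the mark. In THP-1 cells there were 6 peaks in the gene body, the start peak among them, and 1 upstream. That start peak, at chr12:116711072-116714996, ended 502 bp short of the canonical start and crossed that of another transcript. Within 1000000 bp the lists held 17 peaks in RS4;11 and 19 in THP-1 cells. At MED13 the nearest RS4;11 peak was 136662 bp from the start, and at MED20 24189 bp. At CDK19 the THP-1 list had no start peak, but peaks on both sides of it, the nearest at 5140 bp, and 4 in the gene body.

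The promoters of these genes are shown because their start peaks were the ones that the lists did not share, as RefSeq gives them in GRCh38.p14, from 250 bases before to 50 after the start and on the strand of the gene. Capitals mark CCAAT and CACGTG, the E-box bound by MYC and its relatives, on either strand. MED13 is named only. The THP-1 start peak of MED13L ended 502 bp short of the canonical start, inside the gene. The bases printed for MED13L reach only 50 past the RefSeq start. If both starts are the same, none of these bases lie under that peak.
MED13L promoter, chr12:116277644-116277943: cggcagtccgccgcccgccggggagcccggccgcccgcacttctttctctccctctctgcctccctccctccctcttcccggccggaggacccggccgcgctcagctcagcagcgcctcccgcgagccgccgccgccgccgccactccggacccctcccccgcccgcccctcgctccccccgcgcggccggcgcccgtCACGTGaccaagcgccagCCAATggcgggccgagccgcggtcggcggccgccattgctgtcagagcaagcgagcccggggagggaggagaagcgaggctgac
MED20 promoter, chr6:41920894-41921193: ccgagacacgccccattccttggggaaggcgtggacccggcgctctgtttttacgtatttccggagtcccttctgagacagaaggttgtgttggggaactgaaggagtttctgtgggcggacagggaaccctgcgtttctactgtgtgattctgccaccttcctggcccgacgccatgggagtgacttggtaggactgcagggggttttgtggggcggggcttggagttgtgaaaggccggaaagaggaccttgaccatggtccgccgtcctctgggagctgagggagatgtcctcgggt
CDK19 promoter, chr6:110815806-110816105: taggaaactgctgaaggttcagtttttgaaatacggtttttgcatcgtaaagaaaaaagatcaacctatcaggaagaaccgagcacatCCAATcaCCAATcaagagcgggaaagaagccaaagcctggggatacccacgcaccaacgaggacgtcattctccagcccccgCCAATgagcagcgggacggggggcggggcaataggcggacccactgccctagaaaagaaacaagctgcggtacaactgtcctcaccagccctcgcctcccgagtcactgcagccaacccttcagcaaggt

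The CDK19 promoter held 3 CCAAT motifs, that of MED13L 1 CCAAT and 1 CACGTG, and that of MED20 neither. RefSeq promoters were matched for 25 of the 33 members. On either strand, CCAAT was present in 10 of these (40%, against 36.6% of 15318 promoters of all genes) and CACGTG in 2 (8% against 8.9%), at MED13L and CDK8. The ETS motif CCGGAAG was present in 7 (28% against 14.4%), and AAGATGGCG, the core of the YY1 motif, in 4 (16% against 2.8%), at MED1, MED16, MED18 and MED25. TATAAA was present in 2 (8% against 9.59%), at MED7 and MED16, and GCATGCGC, part of the NRF1 motif, in 1 (4% against 4.26%), at MED18. These motifs were chosen after the data had been seen, and a match only describes the letters. Median G and C content was 58% over the members' promoters and 63% over all.

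The number of peaks per gene counted every H3K4me3 peak listed for it, within 20 kb to each side. The median was 2 for the members in each line, as for all genes. In RS4;11 cells MED11, MED12L and MED27 had the most, with 5 each, and MED14, MED15, MED16 and MED25 had 4. In THP-1 cells MED12L had 9, MED13L 7, MED11 and CDK19 6, and MED16 and MED26 5. MED11 is 2181 bp long, the shortest member, and all of its peaks were also listed for the neighbours ARRB2, CXCL16, ZMYND15 or PELP1, whereas MED12L is 351788 bp long, the longest.

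MED12L, the paralog of MED12, had a summed width of 4589 bp in RS4;11 and 10019 bp in THP-1 cells. The gene encloses several receptor genes for purines, and a peak inside it crossed the start of P2RY14 in RS4;11 cells and another that of P2RY12 in THP-1 cells. Inside MED27, a gene of 226940 bp, 4 peaks besides the start peak were listed in RS4;11 cells and none in THP-1 cells. Near MED16, peaks of 3581 and 3498 bp crossed the starts of ELANE, the gene of neutrophil elastase, and of CFD, that of complement factor D, in THP-1 cells only. The kinase module together had 14 peaks in RS4;11 and 28 in THP-1 cells, and the median length of its genes was 166879 bp, against 25589 bp over all members. Whether the number of peaks went with gene length was not tested. CDK8, at 166879 bp, had 1 peak in each line and the short MED11 had 5 and 6, whereas MED12L, the longest member, had 5 and 9.

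Most start peaks of the members lay at places listed in both lines, whereas most peaks inside the genes did not. In RS4;11 cells, 29 of the 30 start peaks overlapped a peak of THP-1 cells (96.7%, against 90% of the start peaks of all genes), and in THP-1 cells 29 of 32 overlapped a peak of RS4;11 cells (90.6% against 79.3%). Of peaks inside the genes that cross no start of the member, 5 of 17 (29.4%) and 5 of 21 (23.8%) overlapped, against 32% and 34.8% over all genes. Upstream peaks overlapped in 11 of 14 (78.6%) and 12 of 18 cases (66.7%), and downstream peaks in 14 of 16 (87.5%) and 15 of 19 (78.9%). Over all genes, with the peaks of each gene placed in the same way, those shares were 64.8% and 58.3% upstream and 67.2% and 64.1% downstream.

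Some of the upstream and downstream peaks lay at the starts of neighbouring genes. Of the upstream peaks, 7 of 14 in RS4;11 cells (50%, against 39.1% over all genes) and 5 of 18 in THP-1 cells (27.8% against 33.3%) crossed the start of a gene that is no member. Of the downstream peaks, 11 of 16 (68.8% against 48.2%) and 11 of 19 (57.9% against 45.1%) did so. With each peak counted once, 59 of the 77 RS4;11 peaks overlapped, or 76.6% (66.0 to 84.7% by the 95% Wilson interval), against 56.1% for the peaks of all genes. Of the 90 THP-1 peaks, 61 or 67.8% (57.6 to 76.5%) did, against 52%. The intervals cover counting error over peaks only. A peak listed for several genes counts once over all genes, yet has more ways to enter the list of the members. These shares of members and of all genes are therefore unlike, and the intervals are not to be read against 56.1% and 52%. The shares by place, with the peaks of each gene counted, are the closer comparison.

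Some start peaks were shared with a neighbour. In RS4;11 cells 5 of the 30 start peaks also crossed the start of another gene (18.6% over all genes), at MED8, MED19 (with TMX2), MED22 (with RPL7A), MED29 (with PAF1) and MED31 (with C17orf100). In THP-1 cells the same 5 and MED20 (with BYSL) did so, 6 of 32 (16.3%). PAF1 encodes a subunit of the elongation complex of that name and RPL7A a ribosomal protein. For these members the width of the peak cannot be assigned to 1 gene.

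The identity of the lines was set against marker genes. Start peaks were listed at the B-cell receptor genes CD79A and CD79B in RS4;11 cells only (2816 and 2921 bp), and those of the monocytic genes LYZ and CD33 were 645 and 1075 bp there against 2709 and 3357 bp in THP-1 cells. Against their labels, PAX5 (4037 bp) and EBF1 (2472 bp) had start peaks in THP-1 cells only and SPI1 (3100 bp) in RS4;11 cells only. Of 8 monocytic markers 5 had a start peak in RS4;11 and 4 in THP-1 cells, and none of the 4 T-lineage or 3 erythroid markers had one in either line. The leukemia type in the labels is lymphoblastic for WDR5 of THP-1 and myeloid for H3K4me3 of RS4;11, against the lines' origin, and samples were grouped by the name of the line.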

How the data were processed

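Peak lists of 4 ChIP-seq samples were used, 1 per antibody (WDR5, H3K4me3) and line (RS4;11, THP-1). The authors aligned reads to hg19 with Eland (up to 2 mismatches, unique hits) and called peaks with MACS at default settings. The submitters' processing notes name CASAVA 1.7 and 1.8.2. The MACS version and any input control are not given in the sources used here. The deposited files hold peak positions and yes or no flags (20 kb upstream, 20 kb downstream, exon, intron), 1 line per peak and transcript, without a score or depth, and include only peaks within 20 kb of a transcript.

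Members were matched by gene symbol. Coordinates and the 19098 protein-coding genes came from GENCODE release 44 on GRCh37, and 28162 of 29410 transcript accessions (95.8%) were matched to RefSeq names. Width was the end minus the start plus 1. Start peaks by flags were chosen after seeing the data. Checked against the annotation, 99.8% and 99.6% of peaks with both flags held a start within 100 bp. Overlap meant 1 shared bp. Python 3.11.15, numpy 2.4.6, scipy 1.17.1 and matplotlib 3.10.9 were used, and the overlap code was tested on simulated data (500 of 500 queries right). Sequences of WDR5 peaks were read from GRCh37.

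Members, lists and tests were chosen with earlier results of these data known. The text names MED24, members with a WDR5 peak, those without H3K4me3 or without a peak in the promoter window in a line, the 5 widest, 5 narrowest and 5 most different start peaks, the 5 with the most peaks (ties kept) and the paralog pairs. Other members are given by range, and those sharing a start with a neighbour were named after their values were seen. Alternatives changed the window, the start used, the minimum width (1000 bp), the joining of peaks closer than 1000 bp and the flank (5000 bp). A stricter threshold could not be tried without peak scores. One marker gene is not reported here.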

Additional observations from a re-analysis of the deposited data

How the results depend on the processing

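With 1 sample per group and no heights or depths in the files, values show the lists of these 4 libraries only, and counts of absent peaks depend on the depth, which is unknown. Of 42 alternative values for the members, 33 were judged the same and 9 were judged moved. Counts were judged by a ratio of 1.5 and shares by the 95% interval, but a median width was judged moved at any change. The moved values were the median widths and the counts of WDR5 in THP-1 cells that follow. The median width of the start peak was 2568 bp in RS4;11 cells with the window at the 5′ end of the gene. It was 2498.5 bp with the starts of every transcript, and 2441.5 bp with the canonical start or with the flags. In THP-1 cells the corresponding median was 2424 bp, and it was 2533 bp with the starts of every transcript and with the flags, 2485.5 bp with the widths in the window summed, and 2506 bp with the canonical start. The number of members with a WDR5 peak in THP-1 cells was 2. It fell to 1 with a flank of 5000 bp and with peaks in exons or introns only, where CDK19 remained and MED12L was lost. Both alternatives also lowered the count in RS4;11 cells, from 3 to 2 with MED30 lost, which the ratio of 1.5 judged the same. With the flank of 5000 bp the total of H3K4me3 peaks fell from 77 to 59 in RS4;11 and from 90 to 68 in THP-1 cells, also judged the same. The alternatives with the canonical start and with the flags, 8 values, were added after seeing the data. Members with a peak in the window ranged from 28 to 30 and from 30 to 32. No paired analysis was possible because each group has 1 sample.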
